A study of Mus musculus with 6 samples.

Results

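Cells from the solei of old mice after hindlimb unloading (HU) were compared with cells from old ambulatory controls, 1 pooled library a side. Every barcode with at least 200 genes and at most 10% of its unique molecular identifiers (UMIs) from mitochondrial genes was kept, which left 2631 control cells and 1890 HU cells. Together they are 4521 of the 12520 cells kept in the 6 libraries of the series. Both groups were male C57BL/6 mice aged 20 to 22 months. The control library came from 20 mice that moved freely and ate as they liked, and the HU library from 10 mice suspended for 14 days and fasted before they were killed. Solei were pooled within a group, and CD45+ DAPI− cells were sorted and sequenced with 10x Genomics 3′ chemistry. Each group is 1 library, so no test of treatment was possible and the intervals below cover counting error only. Per the labels, the old and young controls were sequenced together and the libraries of HU and of 4 days of reloading in a separate run, so that treatment and run cannot be told apart. Values of the old reload library (same run as old HU) and of the young control library (same run as old control) are therefore given beside the main results.

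The soleus is a postural muscle that loses mass when it is unloaded. Its leukocytes include resident macrophages, which take up debris and release growth factors, dendritic cells, which carry antigen to T cells, and group 2 innate lymphoid cells (ILC2), which lack an antigen receptor and release type 2 cytokines such as IL-5 and amphiregulin. Neutrophils and monocytes reach the tissue from the blood, and a pooled, minced muscle holds some blood as well.

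Each cell was given the class for which it had most detected marker genes, with at least 3 of a panel of 5 to 10 and more than for any other class. There were 17 panels, of which those of macrophages, dendritic cells, neutrophils, T cells and ILC2 are described here. No class was given to 158 control cells (6.01%) and 246 HU cells (13%), and 149 and 59 cells were tied between classes. Macrophages had a median of 7 own markers in control and 6 in HU, neutrophils 8 and 6, T cells 6 and 5, ILC2 6 and 5, and dendritic cells 4 in both. At exactly 3 markers stood 17 and 44 macrophages, 37 and 28 dendritic cells, 3 and 11 neutrophils, 42 and 37 T cells, and 26 and 24 ILC2. Just outside the gate, with 2 markers, were 8 and 27, 9 and 18, 0 and 2, 13 and 16, and 12 and 20 cells. Markers of other classes had medians of 0 or 1 per cell in these classes, apart from ILC2 markers in control T cells (median 2). The mean number of monocyte markers was 1.43 in control macrophages and 0.576 in HU macrophages, and in neutrophils it was 1.69 and 0.222. Neutrophils of control also had 1.93 macrophage markers per cell on average, against 0.657 in HU. A stricter gate, which asks for at least 2 times as many own markers as of any other class, was therefore run beside the main one. Only 6 barcodes were shared by the old control and old HU libraries, none of them in the same class. Old and young control shared 41 barcodes, 17 of them in the same class.

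Depth differed between the libraries. Old control held 2918 barcodes and 15765710 UMIs and old HU 2124 barcodes and 7020839 UMIs, and the kept cells had medians of 3952 and 2557.5 UMIs. The gap was widest in neutrophils (median 3243 and 1010.5 UMIs) and smaller in macrophages (5955 and 3866), dendritic cells (9279 and 7396), T cells (3637 and 2635) and ILC2 (3514 and 2557). Ptprc, which encodes the CD45 used for the sort, was detected in 75.4% of control cells and in 48.4% of HU cells outside the stromal classes. Stromal classes (endothelial cells, fibroblasts, mural, muscle stem, Schwann and erythroid cells) held 17 control cells (0.646%) and 264 HU cells (14%), and Ptprc was seen in 5.88% and 3.79% of them. The HU library labelled CD45+ thus held cells in which the transcript of the sorting marker was seldom seen. In old reload, stromal classes made up 1.32% of cells.

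Macrophages took up a larger part of the old HU library and T cells, ILC2, neutrophils, monocytes, NK cells and B cells a smaller part than in old control. Macrophages were 471 of 2631 control cells (17.9%, exact binomial interval 16.5 to 19.4%) and 677 of 1890 HU cells (35.8%, 33.7 to 38.0%), a difference of 17.9 points (Newcombe interval 15.3 to 20.5). Their share was 57.5% in old reload and 36.4% in young control. The difference was 19.0 points under the stricter gate, 18.2 points after all cells were thinned to 1000 UMIs, and 23.6 points when stromal cells were left out of the total.

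T cells had the largest difference downward. They were 603 control cells (22.9%) and 159 HU cells (8.41%), lower in HU by 14.5 points (interval 12.4 to 16.5), beside 3.92% in old reload and 8.22% in young control. The old control library stood apart here from the other 5, whose T-cell shares ran from 2.37% to 8.41%. The difference was −10.7 points with the stricter gate and −7.85 points in thinned cells. ILC2 were 267 cells (10.1%) in control and 105 cells (5.56%) in HU, a difference of −4.59 points (−6.13 to −3.02), beside 1.15% in old reload and 11.5% in young control. NK cells numbered 134 (5.09%) and 13 (0.688%), monocytes 171 (6.50%) and 32 (1.69%), and B cells 146 (5.55%) and 40 (2.12%). Shares add up to 100%, so a class can take a smaller share without losing cells, and cell numbers per muscle were not measured.

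Neutrophils and dendritic cells differed less. Neutrophils were 367 cells (13.9%) in control and 198 (10.5%) in HU, −3.47 points (−5.37 to −1.54), but −1.86 points (−3.90 to 0.248) without stromal cells and −1.05 points (−2.81 to 0.754) with the stricter gate. With at least 500 genes per cell, a limit that removes shallow cells, the difference was −8.94 points. Dendritic cells were 120 (4.56%) and 71 (3.76%), −0.804 points with an interval from −1.96 to 0.400 that holds 0. Endothelial cells were 7 of the control cells (0.266%) and 190 of the HU cells (10.1%), and fibroblasts 6 and 45.

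**Figure D1:**
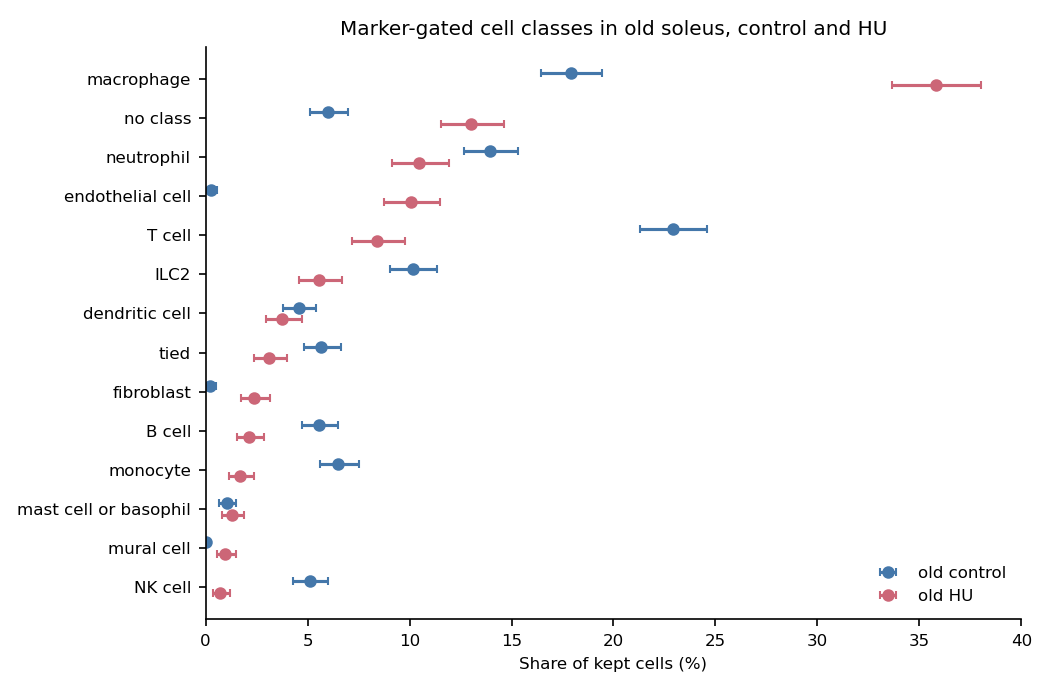
Share of kept cells (%) in each marker-gated class in old control (blue) and old HU (red), with exact 95% binomial intervals, for classes with at least 10 cells in one of the libraries. Macrophages stand at 17.9% and 35.8%, T cells at 22.9% and 8.41%, and endothelial cells at 0.266% and 10.1%.

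In the young pair the HU minus control differences were 4.13 points for macrophages, −5.79 for T cells, −7.71 for ILC2, −8.50 for neutrophils and 21.1 for endothelial cells. Stromal classes held 30.0% of young HU cells. With stromal cells left out of the total, the young macrophage difference was 21.4 points (17.6 to 25.1), beside 23.6 in the old pair. On that total the young differences were −4.78 for T cells, −6.15 for ILC2 and −5.85 for neutrophils. Young control already had 36.4% macrophages, so the old pair starts from a lower macrophage share and a higher T-cell share. The young and the old pair share no library, but both set run against treatment in the same way.

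Gene values below are UMIs summed over the cells of a class and divided by the class total, as CPM (UMIs per 1000000 UMIs of the class), and differences are log2 ratios of HU over control with exact 95% Poisson intervals. A gene counts as past the fold at a log2 ratio of at least 1 in size. Genes with at least 50 UMIs over both libraries were measured, and genes of the marker panels were left out of counts. In macrophages 613 of 7525 genes (8.15%) were past the fold, 188 (2.50%) upward and 425 (5.65%) downward. The numbers were 91 (2.87%) and 354 (11.2%) of 3172 in dendritic cells, 197 (4.55%) and 911 (21.0%) of 4329 in neutrophils, 100 (1.89%) and 947 (17.9%) of 5282 in T cells, and 37 (1.52%) and 317 (13%) of 2435 in ILC2. The whole interval was past the fold for fewer: 43 up and 119 down in macrophages, 37 and 43 in dendritic cells, 54 and 91 in neutrophils, 23 and 114 in T cells, and 10 and 37 in ILC2. Lower genes outnumbered higher ones in every class, and the median of all genes lay below 0, at −0.14 in macrophages, −0.18 in dendritic cells, −0.35 in neutrophils, −0.32 in T cells and −0.19 in ILC2. TMM factors moved these medians to −0.02, −0.09, −0.24, −0.13 and −0.12, so list medians are read beside them. The share of higher genes among macrophage genes past the fold was 30.7%, and 43.8% with TMM factors. The same factors moved it from 20.4% to 30.0% in dendritic cells and from 9.55% to 19.0% in T cells. In ILC2 it was 10.5%, and 20.5% with mitochondrial, ribosomal and haemoglobin genes left out of the total.

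Only 14 of the 1935 genes measured in all 5 classes were past the fold the same way in every class. Some of these values parted the controls from all other libraries or differed between libraries of one treatment. Higher in HU were Cirbp, which encodes a cold-inducible RNA-binding protein, the ribosomal protein genes Rps29 and Rpl38, and mt-Atp8, a subunit of ATP synthase encoded in mitochondrial DNA. Lower were Lars2 (mitochondrial leucyl-tRNA synthetase), Ppp2ca (catalytic subunit of protein phosphatase 2A), Siah2 (a ubiquitin ligase), Metrnl (a secreted factor), Abhd17b (a depalmitoylating enzyme), the class Ib MHC genes H2-Q4, H2-Q6 and H2-Q7, and the unnamed gene models Gm26917 and Gm47283. The 3 H2-Q genes are near copies of each other, so their counts are uncertain as to which copy they belong to.

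In macrophages Cirbp had 61.7 CPM in old control and 194 in old HU, 42.2 in young control and 220 in young HU, and 51.3 and 33.6 in old and young reload. HU and reload were sequenced together, and the part of the run was not tested. Both HU libraries were above the 4 others. Ppp2ca was the reverse, with 189 CPM in old control and 65.8 in old HU, 182 and 56.6 in the young pair, and 160 and 214 at reload. Lars2 likewise had 1662 and 698 CPM in the old pair and 1855 and 850 in the young pair, and 2321 and 1766 at reload. Rps29 did not follow treatment: it had 1781 CPM in old control and 8811 in old HU, but 5335 in young control, 4076 in young HU, 4498 in old reload and 2070 in young reload. For Rpl38 the same 6 values were 1072, 4148, 2592, 2391, 2249 and 1116 CPM. The old control library was the lowest and old HU the highest of the 6 for both ribosomal genes in macrophages. mt-Atp8 was low in both controls (29.8 and 27.3 CPM), higher in old and young HU (173 and 79.3) and highest at reload (632 and 608). It thus parted the controls from the libraries of the other run, which were also those of unloaded mice. In dendritic cells young HU had 27.6 CPM of mt-Atp8, near old and young control (22.0 and 16.7). These 3 genes (Rps29, Rpl38 and mt-Atp8) were also among the 6 largest ratios upward named in T cells and in ILC2, and what part the run has in them was not tested.

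**Figure D2:**
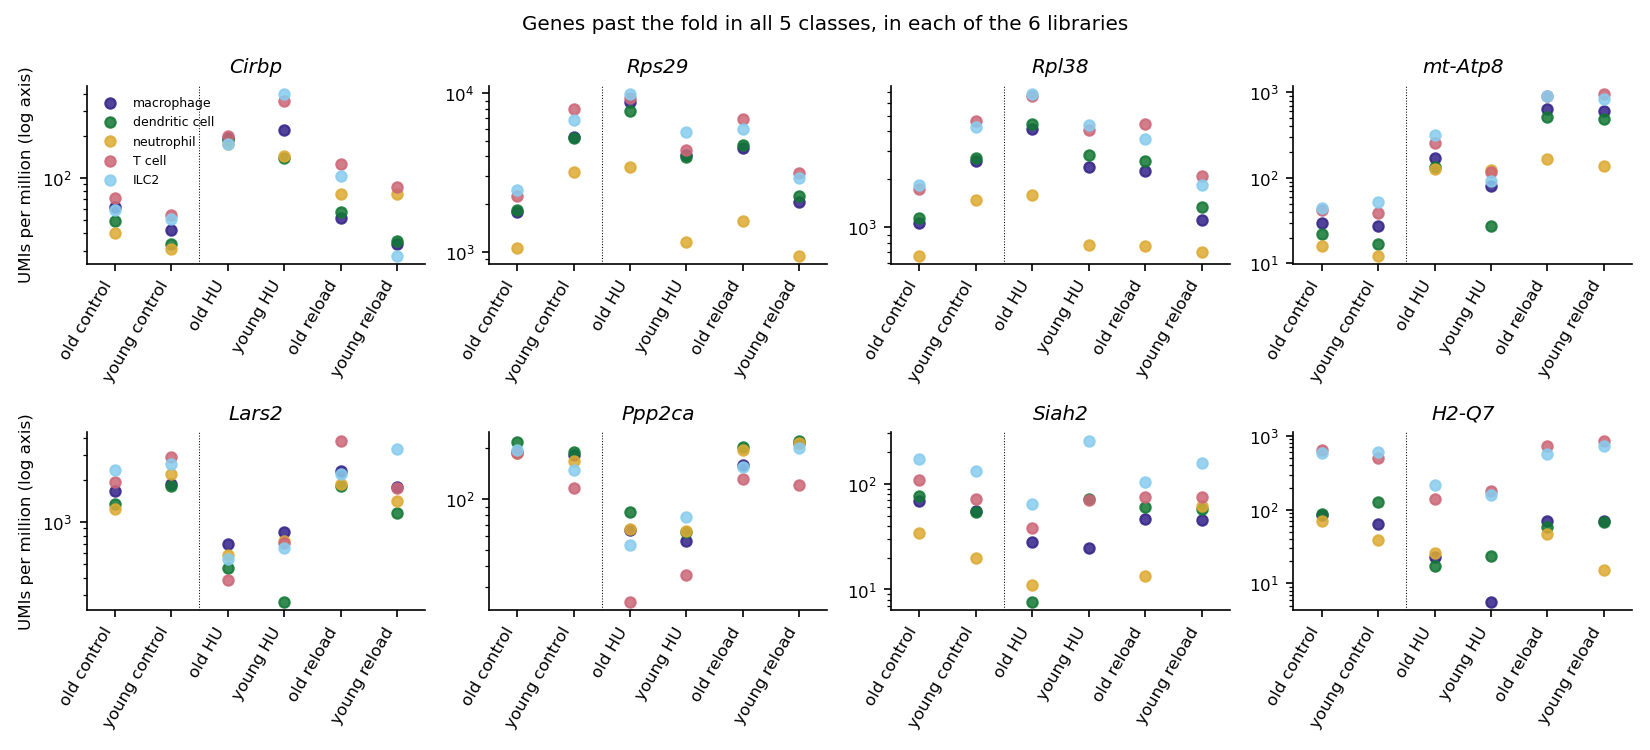
CPM (log axis) of 8 of the 14 genes past the fold the same way in all 5 classes, in each of the 6 libraries. Points are classes, the dotted line parts the control run from the HU and reload run, and values at 0 are not drawn (Siah2 and H2-Q7 in young HU neutrophils). In macrophages Cirbp, Lars2 and Ppp2ca separate the HU libraries from the others, and mt-Atp8 is lower in both controls than in the other libraries. Rps29 and Rpl38 are lowest in old control and highest in old HU macrophages.

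Transcript length went with the ratios as well. In T cells the median log2 ratio was −0.09 for genes with a median transcript under 1000 bases and −0.56 for those of 4000 bases or more. From the shortest to the longest group the median went from −0.00 to −0.26 in macrophages, from 0.02 to −0.40 in dendritic cells and from −0.02 to −0.53 in ILC2, while neutrophils stood at −0.38 and −0.35. In the young pair the medians went from 0.30 to −0.36 in macrophages and from 0.12 to −0.52 in T cells. Gm42418, a gene model that overlaps ribosomal RNA, took 1.76% of the UMIs of all barcodes, before filters, in old control and 0.754% in old HU. It took 2.36% in young control, 0.771% in young HU and 2.54% in old reload. Ribosomal protein genes took 21.8% and 24.5% of the UMIs of all barcodes in old control and old HU.

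In macrophages Ddit4, Klf9 and Fkbp5, which glucocorticoids are known to induce, were past the fold upward in HU, and Slc2a1 and Hmox1 were past it downward. Maf, Igf1 and Pf4, genes of resident macrophages, were past the fold upward in the main gate but not in the stricter one. Ddit4, an inhibitor of mTORC1 (chr10:59949669-59951834, mm10), had 63 UMIs (16.6 CPM) in control and 301 UMIs (90.8 CPM) in HU, a log2 ratio of 2.45 (2.05 to 2.87). It had 16.4 CPM in old reload and 21.7 in young control, so only HU was high, and young HU reached 365 CPM. Of 13 measured glucocorticoid response genes 3 were past the fold upward and none downward, while 2.50% of all macrophage genes were past it upward, with a median of 0.73 against −0.14 for all genes (0.51 with the stricter gate). The other members past the fold were Klf9, a glucocorticoid-induced transcription factor (42.5 to 134 CPM, log2 1.66), and Fkbp5, a co-chaperone of the glucocorticoid receptor (31.9 to 73.9 CPM, log2 1.21). Tsc22d3, which encodes GILZ, had 208 and 369 CPM (log2 0.83). In old reload Klf9 had 21.4 CPM, Fkbp5 6.32 and Tsc22d3 84.1, below old control in each case.

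Of 19 genes of resident macrophages 3 were past the fold upward and none downward, beside 2.50% and 5.65% of all macrophage genes. Their median was 0.30. Maf, a transcription factor of resident macrophages, had 117 CPM in control and 292 in HU (log2 1.32, 1.16 to 1.48), beside 152 in old reload and 109 in young control. Igf1, a growth factor for muscle, had 55.4 and 130 CPM (log2 1.23, 0.99 to 1.48) and Pf4, the chemokine CXCL4, 2145 and 4330 CPM (log2 1.01). Cd163, a scavenger receptor for haemoglobin, had 188 and 358 CPM (log2 0.93) and was seen in 44.2% and 56.0% of macrophages (19.3% and 29.3% after thinning to 1000 UMIs), against 0.829% and 1.26% of T cells, whose median depths are given above. Lyve1 (328 and 393 CPM), Folr2 (271 and 285 CPM) and Timd4 (38.2 and 37.7 CPM), which mark long-lived resident macrophages, differed less. With the stricter gate the list's median was −0.14, near the −0.12 of all genes, and Maf (0.90), Igf1 (0.75) and Pf4 (0.61) were below the fold. The mean number of monocyte markers per macrophage was lower in HU (0.576 against 1.43), and its part in these values was not tested. In the young pair the list's median was 1.63.

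Of the macrophage genes named for the lowest ratios, several were nearer to 0 when the gate was tightened. Thbs1, which encodes the matrix protein thrombospondin 1, had 481 CPM in control and 76.0 in HU (log2 −2.66, −1.15 with the stricter gate). Hp (haptoglobin) had 267 and 44.9 CPM (−2.57, and −0.27 when stricter), Ms4a4c 101 and 20.2 CPM (−2.32, −1.47) and Gm9733 56.7 and 9.95 CPM (−2.51, −0.84). C3, the central complement component, kept most of its ratio, with 68.3 and 10.9 CPM (−2.65, −2.24). Akap7, an anchoring protein of protein kinase A, was among the largest ratios upward, at 4.75 and 28.7 CPM (2.59, 1.86 to 3.41), with 18 UMIs in control. With the stricter gate 374 macrophage genes were past the fold, 224 of them the same genes.

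Macrophage genes of glucose use were mixed. Of 18 glycolysis genes 1 was past the fold upward and 3 downward, beside 2.50% and 5.65% of all macrophage genes. Their median was −0.50. The glucose transporter Slc2a1 had 58.0 and 19.9 CPM (log2 −1.54), the lactate exporter Slc16a3 152 and 60.3 CPM (−1.33, and −0.36 when stricter) and the phosphofructokinase Pfkp 82.6 and 37.1 CPM (−1.15). Hexokinase 2 (Hk2) was the exception, with 37.2 CPM in control and 86.0 in HU (log2 1.21, 0.91 to 1.51), 63.4 in old reload and 53.0 in young control. None of 28 oxidative phosphorylation genes was past the fold (median 0.07). Hmox1, which breaks down haem, had 2759 CPM in control and 1195 in HU (−1.21), beside 1573 in old reload and 3573 in young control. Hsph1, a heat shock protein, had 49.6 and 13.3 CPM (−1.90), the single one of 13 chaperone genes past the fold (median −0.46).

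Inflammatory genes of macrophages differed little in the old pair. Of 26 genes none was past the fold upward and 2 downward, beside 2.50% and 5.65% of all macrophage genes, with a median of 0.17. Of the 2, Osm, which encodes the cytokine oncostatin M, had 64.1 and 21.1 CPM (−1.60), and the transcription factor gene Cebpb 2537 and 1101 CPM (−1.2). The neutrophil-attracting chemokine gene Cxcl2 had 4823 CPM in control and 6730 in HU (log2 0.48), Tnf 395 and 521 CPM (0.40) and Il1b 803 and 616 CPM (−0.38). In the young pair the same list had a median of −1.89, with Cxcl2 at 6682 and 1436 CPM and Il1b at 1025 and 62.2 CPM. Whether the 2 ages differ was not tested. Interferon-stimulated genes had a median of −0.21, with 1 of 24 past the fold (Ly6e, 1213 and 582 CPM, −1.06), MHC class II genes 0.01, lipid and lysosome genes −0.02, and immediate early genes 0.37 with none past the fold. Cell cycle genes had a median of −0.63 and 4 of 16 past the fold downward, but more than 50% of the UMIs of Birc5, Pclaf and Ube2c came from 5 cells in each library, and the median was −0.13 with the stricter gate.

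Transcripts of stromal classes also stood higher in HU macrophages, and several of other leukocytes lower. The summed haemoglobin genes had 6.07 CPM in control and 767 in HU, where 97.3% of the Hbb-bs UMIs lay in 5 cells. Summed endothelial markers had 27.7 and 82.7 CPM and fibroblast markers 25.9 and 66.4 CPM, with 95.4% of the Dcn UMIs of HU in 5 cells. Cd79a, a B-cell marker, was seen in 12.5% of control and 3.25% of HU macrophages, and the T-cell marker Cd3e in 4.67% and 1.33%. The neutrophil granule gene S100a9 was in 11.3% and 6.06%, at median macrophage depths of 5955 and 3866 UMIs. The part of all these transcripts in the other results was not tested.

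Dendritic cells of HU had lower values of type 1 genes and higher values of some type 2 genes. Type 1 dendritic cells take up dead cells and present their antigens to CD8 T cells, and type 2 cells present mostly to CD4 T cells. Of 9 measured type 1 genes 5 were past the fold downward and none upward, while 11.2% of all genes were past it downward, with a median of −1.11 against −0.18 for all genes (−0.99 with the stricter gate). The transcription factor gene Irf8 had 368 CPM in control and 148 in HU (log2 −1.31, −1.68 to −0.96), beside 378 in old reload and 175 in young control. Old control and old reload were sequenced apart, and young control was sequenced with old control. The part of the run in these values was not tested. Wdfy4, needed for cross-presentation, had 235 and 104 CPM (−1.17), the lysosomal thioesterase gene Ppt1 307 and 72.1 CPM (−2.09), the adhesion gene Cadm1 59.3 and 20.9 CPM (−1.51) and Ifi205 255 and 118 CPM (−1.11). Batf3, another transcription factor of these cells, had 69.4 and 74.0 CPM. Clec9a, a gate marker and so no independent value, was seen in 58 of 120 cells (48.3%) and 16 of 71 (22.5%).

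Among 10 type 2 genes Ear2 (34.7 and 158 CPM, log2 2.18) and Mgl2 were past the fold upward and Cd7 (207 and 68.3 CPM, −1.60) downward, with a median of 0.18. Of all dendritic cell genes 2.87% were past it upward and 11.2% downward. Mgl2, a C-type lectin (chr11:70130329-70137550), had 301 CPM in control and 824 in HU (1.45, 1.24 to 1.66). It was seen in 32 of 120 control cells (26.7%, 19.0 to 35.5%) and 43 of 71 HU cells (60.6%, 48.3 to 72.0%), and in 14.3% and 44.3% after thinning. In T cells, with median depths of 3637 and 2635 UMIs, its share was 1.33% and 0 of 159. Young control had Mgl2 in 54.9% of dendritic cells and old reload in 24.9%.

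Among chemokine genes of dendritic cells, Cxcl1 and Cxcl2 rested on few cells. The interferon-induced chemokine gene Cxcl10 had 51.7 and 304 CPM (log2 2.56, 2.12 to 3.01), with 73.8% of its control UMIs in 5 cells. Of 16 inflammatory genes 5 were past the fold upward and none downward (median 0.54), beside 2.87% and 11.2% of all dendritic cell genes. Cxcl2 had 290 and 824 CPM, with 93.6% and 79.3% of UMIs in 5 cells, and Cxcl1 had all of its UMIs in 5 cells or fewer. Ier3 (261 and 674 CPM, log2 1.37), Ccl2 (116 and 287 CPM, 1.30) and Tnf (55.9 and 133 CPM, 1.25) were the others. Maturation genes were split, 4 up and 3 down of 17: Ccl17, a chemokine for Ccr4-bearing T cells, had 166 and 442 CPM (1.41) and was seen in 12.5% and 43.7% of cells against 0.498% and 0.629% of T cells, while Basp1 had 180 and 53.2 CPM (−1.76). Fscn1, an actin-bundling protein of migrating dendritic cells, had 81 UMIs in control, all in 1 cell. The metallothionein genes Mt1 (1652 and 4123 CPM, 1.32) and Mt2 (121 and 344 CPM, 1.5) were higher, and the chaperone genes Hsp90aa1 (764 and 245 CPM, −1.64) and Hspa5 (922 and 418 CPM, −1.14) lower. The largest ratios beside these were of Spink2 (14 and 51 UMIs, 3.03) and Flrt3 (28 and 67 UMIs, 2.42) upward, and of Ifitm1 (304 and 9 UMIs, −3.91), Siah2 (90 and 4 UMIs, −3.33), Pi4k2a (62 and 3 UMIs, −3.20, −5.52 to −1.59) and Csf2rb, a receptor subunit for GM-CSF and IL-5 (303 and 29 UMIs, −2.22), downward. Flrt3 had 258 CPM in young control and 48.8 in young HU.

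**Figure D3:**
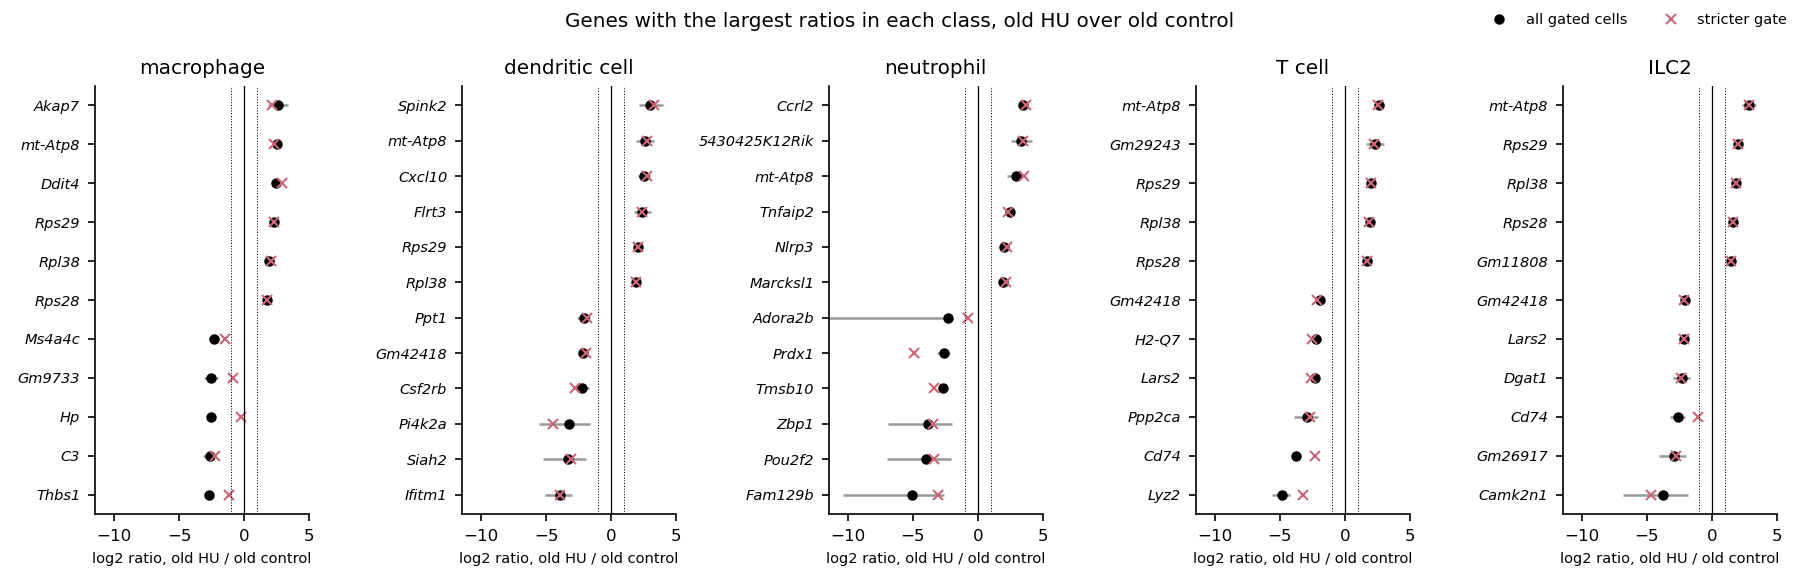
Log2 ratio of old HU over old control for up to 6 genes each way with the largest ratios in each class, with exact 95% Poisson intervals (bars) and the value under the stricter gate (crosses). Dotted lines mark the fold of 1 on the log2 scale, the open-ended bar is of Adora2b, with 0 UMIs in HU, whose point is a bound, and macrophage genes such as Hp move from −2.57 to −0.27 under the stricter gate.

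In neutrophils of HU many inflammatory and immediate early genes were past the fold upward and many interferon-stimulated genes downward. With 367 control cells of 2375954 UMIs and 198 HU cells of 271122 UMIs, this class also had the least even depth. Transcripts known from other myeloid cells were lower in the same HU cells: Lyz2 was seen in 87.7% of control and 57.6% of HU neutrophils, Cd74 in 41.7% and 16.7%, and Apoe in 33.8% and 9.09%, at median depths of 3243 and 1010.5 UMIs. Their part in the results that follow was not tested. Of 24 inflammatory genes 10 were past the fold upward and 1 downward, while 4.55% of all genes were past it upward, with a median of 0.79 against −0.35 for all genes and 1.01 with the stricter gate. With every cell weighted equally the median of the list was 0.65. Ccrl2, a receptor that binds chemerin (chr9:111054486-111057519), had 186 UMIs (78.3 CPM) in control and 233 UMIs (859 CPM) in HU, a log2 ratio of 3.46 (3.17 to 3.74). It stood at 205 CPM in young control, 1711 in young HU and 331 in old reload, so that the HU library was the higher in both pairs. The inflammasome sensor gene Nlrp3 had 124 and 502 CPM (2.01), Cxcl2 1981 and 6130 CPM (1.63), Il1rn, which encodes the IL-1 receptor antagonist, 201 and 653 CPM (1.70), and Il1b 2477 and 5153 CPM (1.06). Genes that regulate NF-κB signalling were among them, with Nfkbiz at 198 and 609 CPM (1.62), Nfkbia at 1005 and 2331 CPM (1.21) and Tnfaip3 at 63.1 and 133 CPM (1.07). Cxcl1 went the other way on 79 and 2 UMIs, and was higher in HU (0.84) with the stricter gate. Old reload had 4267 CPM of Cxcl2 and 5692 CPM of Il1b, both above old control.

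Of 17 immediate early genes 10 were past the fold upward and none downward, while 4.55% of all genes were past it upward. Their median was 1.04, and 0.58 with every cell weighted equally. Egr1 had 96.8 and 258 CPM (log2 1.42), Jun 185 and 487 CPM (1.40, and 0.22 with the stricter gate) and Junb 1420 and 3651 CPM (1.36), beside 2046 CPM of Junb in old reload and 1181 in young control. Of 12 glucocorticoid response genes 5 were past the fold upward, beside 4.55% of all genes. Their median was 0.92, and 0.42 with every cell weighted equally. Tsc22d3 (184 and 446 CPM, 1.28) and Dusp1, a phosphatase of MAP kinases (1091 and 2630 CPM, 1.27), were among these 5. Of the activation and trafficking genes, Clec4d, a C-type lectin, had 678 and 1579 CPM (1.22) and Acod1, which makes itaconate, 571 and 1158 CPM (1.02). Tnfaip2 (190 and 1062 CPM, 2.48), Marcksl1 (526 and 2010 CPM, 1.94) and 5430425K12Rik (26 and 30 UMIs, 3.34) were the other large ratios upward. Tnfaip2 had 1082 CPM in old reload, near old HU, and 287 in young control.

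Interferon-stimulated genes had the lowest median of the lists in neutrophils, at −1.15 (−1.35 with the stricter gate), with 16 of 26 past the fold downward and none upward, while 21.0% of all genes were past it downward. The median of the list was −0.79 with at least 500 genes per cell and −1.38 with every cell weighted equally. Ifitm3, which restricts virus entry, had 9313 UMIs (3920 CPM) in control and 430 UMIs (1586 CPM) in HU, −1.31 (−1.45 to −1.17), beside 1605 CPM in young control, 1984 in young HU and 2849 in old reload. Old control was the highest of these 5 libraries for Ifitm3. Summed over the list, old control had 8095 CPM and old HU 3917, beside 8546 in old reload and 3502 in young control. Ly6e had 1449 and 594 CPM (−1.29). Zbp1, a sensor of Z-form nucleic acids, had 253 UMIs in control and 2 in HU (−3.85, −6.91 to −1.98), beside 97.7 CPM in old reload and 21.6 in young control.

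The surface genes Ly6g and Cd177 were detected in more neutrophils of old control than of old HU. Ly6g, a surface marker of mature neutrophils, was seen in 146 of 367 control cells (39.8%) and 15 of 198 HU cells (7.58%), and in 19.8% and 6.00% after thinning. Cd177, another neutrophil surface protein, was seen in 39.5% and 3.03% of cells, 15.7% and 2% after thinning. T cells had Ly6g in 0 of 603 and 0 of 159 cells and Cd177 in 1.49% and 0%. Ly6g was seen in 14.3% of neutrophils in young control, 19.8% in young HU and 8.42% in old reload, and after thinning young HU (20.4%) was as high as old control. Cd177 was seen in 11.1% of thinned young HU neutrophils. Cybb, a subunit of the NADPH oxidase, had 534 and 136 CPM (−1.97, −3.25 when stricter), beside 149 in old reload and 245 in young control. Of 13 granule genes 1 was past the fold upward and 3 downward, beside 4.55% and 21.0% of all genes. Their median was −0.26, against −0.35 for all genes. Prtn3 (proteinase 3) had 127 and 3 UMIs (−2.27), turning to 0.25 with the stricter gate. Camp (cathelicidin) had 501 and 2261 CPM, but 100% of its HU UMIs were in 5 cells or fewer, and it turned to −4.78. Tmsb10, which binds actin, had 5614 and 885 CPM (−2.66) and Prdx1, a peroxidase, 791 and 129 CPM (−2.61), both further apart with the stricter gate (−3.39 and −4.92). Fam129b (295 and 1 UMIs, −5.07, −10.4 to −2.58) and Pou2f2 (276 and 2 UMIs, −3.98, −7.03 to −2.11) were among the lowest log2 ratios. Adora2b, an adenosine receptor, had 128 UMIs in control and 0 in HU, at least 4.87-fold lower with a floor of 3 counts. The median of 28 oxidative phosphorylation genes was −0.68, with 3 past the fold downward, a smaller share than the 21.0% of all genes. The stricter gate kept 281 and 182 neutrophils and left 479 genes past the fold, 305 of them the same genes.

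In T cells of HU several cytotoxic effector genes were past the fold downward and several immediate early genes upward. Of 18 effector genes 7 were past the fold downward and none upward, while 17.9% of all genes were past it downward, with a median of −0.67 against −0.32 for all genes (−0.75 with the stricter gate). Gzmb, the protease granzyme B (chr14:56258838-56262260), had 479 UMIs (181 CPM) in control and 21 UMIs (46.7 CPM) in HU, −1.96 (−2.66 to −1.33), beside 141 CPM in old reload and 191 in young control. It was seen in 20.2% of control T cells (17.1 to 23.7%) and 7.55% of HU T cells (3.96 to 12.8%), 10.9% and 5.33% after thinning, and in 1.06% and 0.295% of macrophages, whose median depths were 5955 and 3866 UMIs. Gzmk, granzyme K, had 174 and 55.6 CPM (−1.65) and was seen in 16.4% and 3.77% of cells (0.425% and 0.148% of macrophages), with 96.0% of its HU UMIs in 5 cells. In old reload Gzmk was at 110 CPM and in young control at 20.3. Tbx21, the transcription factor T-bet, had 80.6 and 28.9 CPM (−1.48), the chemokine receptor gene Cxcr3 51.1 and 17.8 CPM (−1.52), Ifng 114 and 48.9 CPM (−1.22) and the granule protein gene Nkg7 813 and 389 CPM (−1.06). Ccl3 had 71 and 0 UMIs, but 81.7% of the control UMIs were in 5 cells. Ccl5, the most abundant of the list, had 9420 and 6439 CPM (−0.55).

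Genes of T-cell subsets were compared by the share of cells that held them. Cd8a was detected in 24.0% of control T cells (20.7 to 27.7%) and 14.5% of HU T cells (9.40 to 20.9%), Cd4 in 13.3% and 6.29%, and Trdc, a constant region of the γδ receptor and a gate marker, in 24.7% and 17.6%. After thinning Cd8a was in 8.86% and 4.67% and Cd4 in 6.30% and 4.00%. Macrophages had Cd8a in 2.34% and 0% of cells and Trdc in 0.849% and 0.148%, and neutrophils had Cd4 in 0.545% and 0%. Foxp3, which marks regulatory T cells, was in 1.82% and 1.89% of T cells and in 0% and 0.295% of macrophages. Among γδ and type 17 genes (median −0.40, and 0.52 with the stricter gate) Il17a had 76.1 and 220 CPM (1.53), with 83.8% of the HU UMIs in 5 cells. Checkpoint genes had a median of −0.47, with Tox, a transcription factor of chronically stimulated T cells, at 139 and 6 UMIs (−1.98) and the receptor gene Lag3 at 55 and 0 UMIs, at least 3.12-fold lower. Cd69, an early activation and retention marker, had 175 and 349 CPM, just under the fold.

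Of 17 immediate early genes in T cells 5 were past the fold upward and 1 downward, while 1.89% of all genes were past it upward, with a median of 0.71. Atf3 had 112 and 322 CPM (1.52), Fos 251 and 531 CPM (1.08), Nr4a1, induced by antigen receptor signals, 654 and 1363 CPM (1.06) and Junb 3778 and 7693 CPM (1.03), whereas Jund had 1040 and 511 CPM (−1.02). Old reload held 3309 CPM of Junb and young control 2790, both below old HU. Tnf had 99.9 and 327 CPM (1.71, 1.41 to 2.01) and had 72.0 CPM in old reload and 37.2 in young control. Among the other inflammatory genes Ccrl2 (25 and 29 UMIs, 2.77) and Cxcl2 (169 and 113 UMIs, 85.8% in 5 cells in both libraries) were higher and myeloid genes lower, such as Cd14 (545 and 1 UMIs, 68.8% of the control UMIs in 5 cells) and Il1b (151 and 0 UMIs, 89.4%).

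The lowest ratios in T cells were of transcripts known from myeloid cells. Lyz2, the lysozyme of myeloid cells, had 3083 UMIs in control and 18 in HU (−4.87), and Cd74, the invariant chain of MHC class II, 4678 and 58 UMIs (−3.78). Lyz2 was seen in 10.1% and 3.14% of T cells and Cd74 in 16.6% and 14.5%, and 5 cells held 49.7% and 60.5% of the control UMIs. C1qa was in 0.995% and 2.52% of T cells. With the stricter gate the ratios were −3.22 and −2.32. Lars2 (1942 and 387 CPM, −2.33), Ppp2ca (494 and 11 UMIs, −2.93), H2-Q7 (648 and 138 CPM, −2.23) and Gm42418 (−1.95) were other genes with low ratios. On the other side stood mt-Atp8 (2.62), Gm29243 (42 and 36 UMIs, 2.33), Rps29 (2.04), Rpl38 (1.93) and Rps28 (1.73). Cell cycle genes had a median of −0.57. Of 16 such genes 3 were past the fold downward, on 3 to 7 UMIs in HU, while 17.9% of all genes were.

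**Figure D4:**
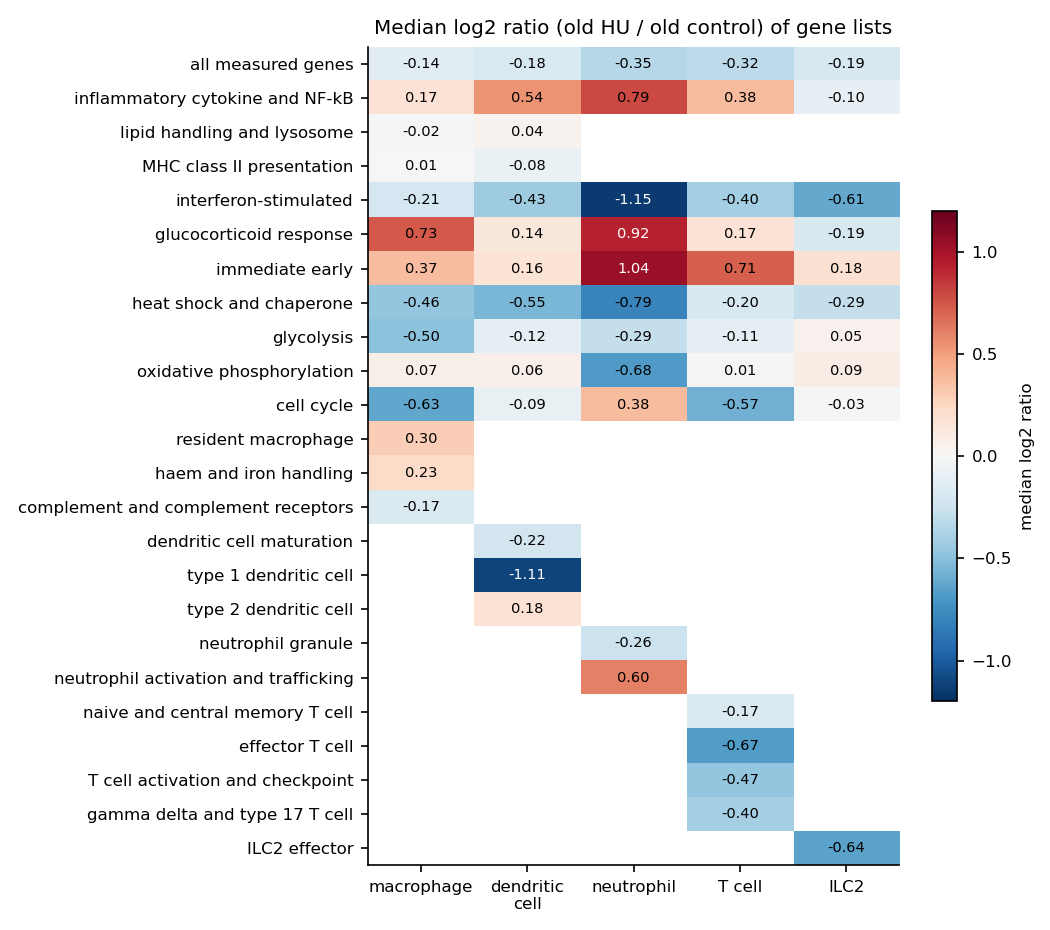
Median log2 ratio (old HU over old control) of each gene list with at least 5 measured members in each class, with the median of all measured genes in the top line. Neutrophils have 1.04 for immediate early and −1.15 for interferon-stimulated genes, dendritic cells −1.11 for type 1 genes, and macrophages 0.73 for glucocorticoid response genes. Empty cells are lists not read in that class or with fewer than 5 measured members there.

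ILC2 of HU had fewer transcripts of Il5 and more of Areg. The 22 ILC2 effector genes gave 13 measured members, with 1 past the fold upward and 2 downward, beside 1.52% and 13% of all ILC2 genes. Their median was −0.64 against −0.19 for all genes. Il5, which sustains eosinophils (chr11:53720794-53725106), had 937 UMIs (929 CPM) in control and 106 UMIs (377 CPM) in HU, −1.30 (−1.61 to −1.01). Young control had 2773 CPM, young HU 114 and old reload 1076, so that both HU libraries were the lowest of the 6. In old HU 62.3% of the Il5 UMIs were in 5 cells. It was seen in 28.8% (23.5 to 34.7%) and 20.0% (12.8 to 28.9%) of ILC2, and in 20.5% and 14.7% after thinning. Macrophages held it in 0.212% and 0% of cells. Il13 had 493 and 305 CPM (−0.69) and was seen in 19.1% and 13.3% of cells, but in 11.4% and 11.8% after thinning, against 0.637% and 0.148% of macrophages. The growth factor gene Csf2 had 485 and 377 CPM (−0.36) and the neuropeptide gene Calca 488 and 313 CPM (−0.64). Arg1, arginase 1, had 184 and 74.6 CPM (−1.31), beside 332 in old reload and 144 in young control. Areg, which encodes amphiregulin, an epidermal growth factor receptor ligand that supports repair, went the other way, with 691 and 1563 CPM (1.18, 1 to 1.35), and 52.5% of its HU UMIs were in 5 of the 105 cells. Old reload had 1482 CPM of Areg and young control 941. The share of ILC2 with Areg differed little, at 44.9% (38.9 to 51.1%) in control and 48.6% (38.7 to 58.5%) in HU. After thinning it was 29.2% and 35.3%. In the young pair the share with Areg was lower in HU, at 62.0% in control and 35.1% in HU (36.9% and 22.8% after thinning).

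Few genes of the other lists were past the fold in ILC2. Jun had 202 and 515 CPM (1.35), Cxcl2 835 and 1776 CPM (1.09), Tnf 30.7 and 88.8 CPM (1.53) and Ddit4 140 and 305 CPM (1.13), while Jund had 2087 and 959 CPM (−1.12) and Hsp90aa1 639 and 281 CPM (−1.19). Old reload had 2049 CPM of Jund and young control 708. Camk2n1, an inhibitor of calmodulin kinase II, had 97 UMIs in control and 2 in HU (−3.76, −6.82 to −1.87), and Dgat1, which makes triglyceride, 372 and 74.6 CPM (−2.32, −3.03 to −1.68). Dgat1 stood at 310 CPM in old reload and 517 in young control, both above old HU, and at 71.2 in young HU. Cd74 had 574 and 26 UMIs (−2.62), but 87.5% of the control UMIs were in 5 cells and the ratio was 0.043 once scored doublets were removed. The remaining large ratios were of Lars2 (−2.13), Gm26917 (−2.90) and Gm42418 (−2.10) downward, and of mt-Atp8 (2.84), Rps29 (2.01), Rpl38 (1.90), Rps28 (1.67) and Gm11808 (1.5) upward.

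**Figure D5:**
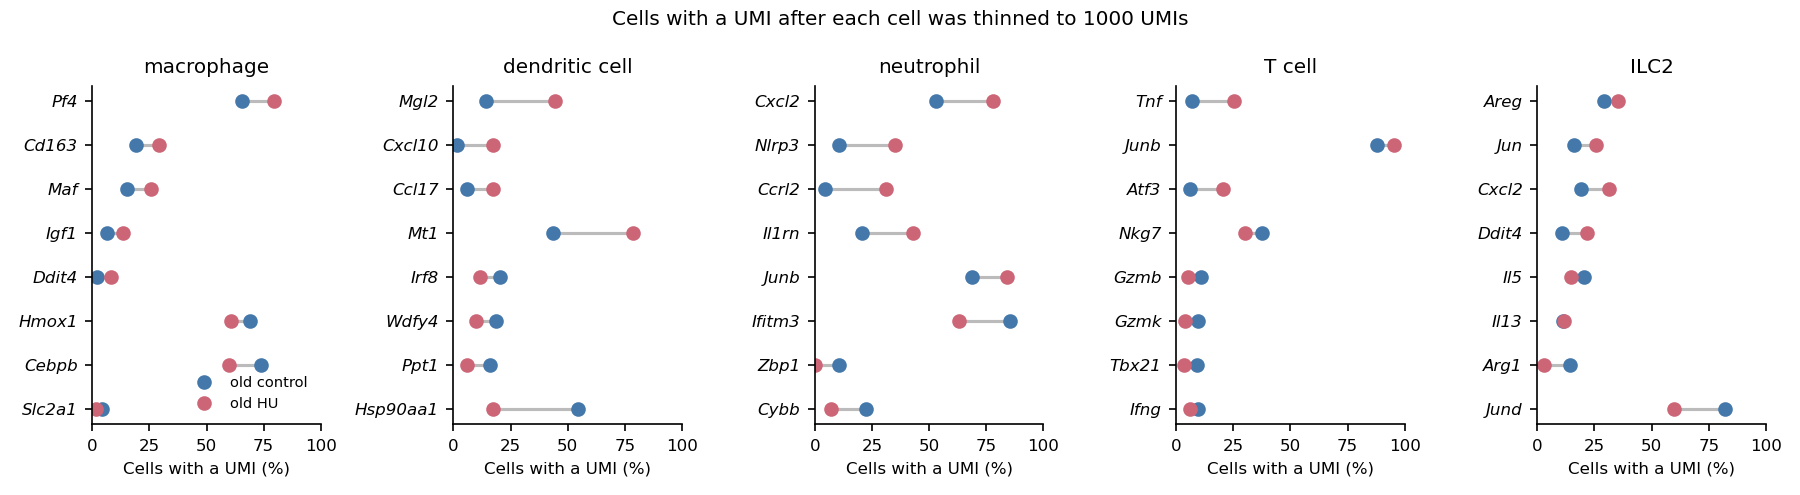
Cells with at least 1 UMI (%) of 8 list genes in each class after every cell was thinned to 1000 UMIs, in old control (blue) and old HU (red). Mgl2 goes from 14.3% to 44.3% of dendritic cells, Gzmb from 10.9% to 5.33% of T cells, and Il13 lies at 11.4% and 11.8% of ILC2.

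The young pair offers a second look at the same contrast in other libraries, with run and treatment set against each other in the same way. Of the 188 macrophage genes higher in old HU, 170 were measured in young macrophages, and 104 of these were past the fold the same way and 3 the opposite way. Of 425 lower genes 362 were measured, with 211 the same way and 1 opposite. In neutrophils 29 of 105 higher and 91 of 185 lower genes went past the fold the same way, and in T cells 12 of 30 and 89 of 157. In ILC2 the counts were 7 of 22 and 109 of 202. Dendritic cells differed most in the higher genes, with 16 of 87 the same way and 14 opposite, against 154 of 318 and 5 for the lower ones. The shares of all genes past the fold in the young pair are not given, so these counts have no background beside them. What the pairs share may be treatment or run, which cannot be told apart.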

How the data were processed

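The authors deposited raw counts of UMIs per gene and barcode for 6 pooled libraries, made with Cell Ranger 3.1.0 on mm10. Their processing notes also name Seurat, which was not used here. Coordinates are from GENCODE vM21 (mm10), which matched 99.6% of the 31053 gene identifiers. Cells were kept with at least 200 genes and at most 10% mitochondrial UMIs. Doublets were kept, and scrublet (scanpy 1.11.5, 0.8% per 1000 barcodes) was used only as an alternative. Classes came from 17 panels of 143 markers. The members and lists were chosen with earlier results of these data known, and the limit of 3 markers was set after the counts were seen. UMIs were summed per class. Ratios have exact Poisson, shares exact binomial and differences of shares Newcombe intervals at 95%, for counting error only, since each group is 1 library. Cell numbers set the width of the share intervals. The UMIs of a gene in a class set that of the ratio intervals, so depth (7020839 to 15765710 UMIs) matters there. Thinning drew 1000 UMIs per cell and left out 111 control and 291 HU cells. Named genes were the 6 largest each way by the interval bound nearest 0, among genes past the fold in at least 10% of cells, the 2 most abundant and the extreme members of each of 28 lists, and those shared by all classes. Other list members were chosen after their values were seen. Ratio intervals were tested on simulated data. TMM factors came from edgeR 4.0.16 in R 4.3.3, and the rest was computed in Python 3.11.15 with pandas 2.3.3, scipy 1.17.1 and numpy 2.4.6 and drawn with matplotlib 3.10.9. A few genes named by the rule are not reported here.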

Additional observations from a re-analysis of the deposited data

Results flagged for a closer look

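Among the named genes, 7 lay past the fold in opposite directions in the old and the young pair. Over all measured genes the opposite ones were, of those higher and of those lower in old HU, 3 and 1 in macrophages, 14 and 5 in dendritic cells, 10 and 4 in neutrophils, 3 and 2 in T cells, and 1 and 2 in ILC2. The difference between the ages was not tested, since each age has 1 library per treatment. In macrophages Hk2 had a log2 ratio of 1.21 in the old pair and −1.46 in the young pair, on 278 and 45 UMIs in young control and young HU. In dendritic cells Ccl5 stood at 1.84 and −2.56 (108 and 6 UMIs in the young pair), Flrt3 at 2.42 and −2.40 (372 and 23 UMIs), Mt1 at 1.32 and −1.11 (7511 and 1140 UMIs) and Mt2 at 1.5 and −1.12 (579 and 87 UMIs). The old value of Ccl5 was 0.95 with the stricter gate, and 83.7% and 87.4% of its UMIs in the old pair lay in 5 cells. Rps29 in neutrophils stood at 1.68 in the old pair and −1.45 in the young pair. Jund in ILC2 went from −1.12 in the old pair to 1.18 in the young pair, on 488 and 225 UMIs.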

How the results depend on the processing

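Of 55 alternative values of the class shares 47 stayed on the same side and within the interval, 7 moved outside it on the same side and 1 reversed. The macrophage difference was 21.7 points with at least 500 genes per cell and 23.6 points without stromal cells, where the smaller total makes it so. The dendritic cell difference was 0.199 points when cells without a class were assigned by likelihood. The neutrophil difference was −8.94 points with at least 500 genes, −1.05 with the stricter gate and −5.90 in thinned cells, and the T-cell difference −10.7 with the stricter gate and −7.85 in thinned cells. The cause was not tested. The stricter gate and the removal of shared barcodes were chosen after seeing the data. Counts of genes past the fold kept within 1.5 times in 58 of 70 cases. They were 374 in macrophages and 479 in neutrophils with the stricter gate, of which 224 and 305 were past the fold in the main gate too. With a minimum of 20 UMIs, which lets in genes with wide intervals, they were 1063 in macrophages, 1036 in dendritic cells, 1879 in neutrophils, 1805 in T cells and 959 in ILC2, and with a minimum of 200 UMIs, which leaves fewer genes, 200, 91, 296, 231 and 73. The share of higher genes among them was 29.0% in neutrophils with the stricter gate (17.8% in the main gate), and with 200 UMIs 29.4% in neutrophils and 30.8% in dendritic cells (20.4%).

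Of 708 list medians 680 stayed, 25 moved and 3 reversed: inflammatory genes in T cells (−0.24 with 4 markers), cell cycle genes in neutrophils (−0.12 with cells weighted equally) and γδ and type 17 genes in T cells (0.52 with the stricter gate). Of 4008 values of named genes 3598 stayed, 400 moved and 10 reversed. With the stricter gate these were in neutrophils Camp (−4.78), Cxcl1 (0.84), Hsph1 (0.69), Klf9 (−0.38) and Prtn3 (0.25). With 4 markers they were Camp in neutrophils (−0.97) and Cxcl1 in dendritic cells (−2.98). The others were Ccl3 in T cells without shared barcodes (0.032), Cd74 in ILC2 without scored doublets (0.043) and Mt1 in ILC2 with classes by likelihood (0.85). No paired analysis was possible because each group is 1 library. Depth limits the HU neutrophils most, where 271122 UMIs stand against 2375954 in control.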
